A study of Oncorhynchus mykiss with 72 samples.

Results

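A set of 7 gill features was close to absent in redband trout held at 15 °C, in all 3 strains of the series. On the first day at 28 °C the 7 features were detected in every library. They were selected on their measured values, as the 7 of 23234 features measured in all 3 strains whose median normalised value was at most 1 over the 12 libraries at 15 °C and at least 10 over the 3 libraries at 28 °C on day 1, in each strain. The features are g05564, g11840, g12728, g34269, g35012, singleton_rep_c1368 and singleton_rep_c2558, the last pair written here as c1368 and c2558. Because the day 1 libraries at 28 °C and all libraries at 15 °C chose the members, their values are given as a description with no test. The libraries at 28 °C of days 3, 7 and 28 took no part in the choice, and the tests compare these days. The spread in those tests is estimated from all 24 libraries of a strain, those that chose the members included. The limma calls, which are the main ones, are therefore also given from the 9 libraries of days 3, 7 and 28 alone.

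Redband trout are a form of rainbow trout (Oncorhynchus mykiss) of inland western North America. The groups, all gill tissue, were the F1 cross (labelled LJxK), the desert strain Little Jacks Creek (LJ) and the montane strain Keithly (K), each sampled after 1, 3, 7 and 28 days, either in heat (28 °C) or at the control temperature (15 °C). With 3 libraries per group, the 24 groups made 72 libraries, and the age of the fish is not given in the sources used here. Each library was a pool of 3 RNA samples from fish of a shared rearing tank, so p-values measure the spread between such pools and not between single fish.

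A normalised value is a read count divided by the effective size of its library, as the authors deposited it, and the 3 strains were normalised in separate tables. Rows without an identifier, 5001 in the F1 cross, 5408 in Little Jacks and 4261 in Keithly, were left out of every read total here. Libraries then held 0.276 to 19.9 M reads recovered from these values (M, mega), with a median of 6.43 M. Of the 3 libraries under 1 M, 1 was at 28 °C, the first F1 library of day 28. A further 7 libraries stood apart from their groups across the transcriptome, 5 of them at 28 °C: the first Little Jacks library of day 1, the third of day 7 and the third of day 28, the second F1 library of day 28 and the third Keithly library of day 28. A count of 3 reads, taken as the floor under which no fold is read, equalled 0.132 to 9.24 normalised units depending on the library, and that floor covers counting error only.

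When fish cells meet water far above the temperature they are used to, heat shock transcription factors switch on genes for chaperones, the proteins that hold and refold other proteins as they lose their shape. Some of these genes, such as the inducible members of the hsp70 family, have very low transcript levels in unstressed cells, whereas constitutive relatives are expressed throughout. The gill takes up oxygen, exchanges ions and lies in direct contact with the water, so it meets a change of water temperature at once. Gene names are not paired with the deposited identifiers, 0 of 25137 of which were found in the trout gene table, so none of the 7 features can be assigned to such a gene or given a function here, and the gill label could not be checked against marker genes. Of the 7 identifiers, 5 began with g, as did 97.8% of all features measured in the 3 strains, and 2 began with singleton_rep, which marked 2.16% of all features.

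At 15 °C the 7 features had few reads, and most of their values were at or under the floor. Of the 252 values that 7 features gave in 36 control libraries, 63 (25%) rested on no read at all and 151 rested on 3 reads or fewer. Among the control libraries under 1 M reads, the first Keithly library of day 28 held 0 reads of the 7 features. The first F1 library of day 3 held 3 of them in all. A count of 3 reads equalled 9.24 and 4.04 units in these libraries, so a value of 0 there does not show absence. By feature, values at or under 3 reads were found in 33 of the 36 control libraries for g35012, 27 for c1368, 25 for g12728, 19 for g34269, 18 for g05564, 15 for c2558 and 14 for g11840, so g11840 and c2558 were above the floor in most of them. Feature g35012 had no read in 18 of the 36 control libraries, c1368 in 14, g12728 in 11, g05564 in 8, g34269 in 6, and g11840 and c2558 in 3 each. The highest control value of any member was 8.80, for c1368, and it came from 25 reads in the second F1 library of day 28 at 15 °C, which also stood apart across the transcriptome. That library held 6 of the 7 members above 1, and the next highest number, 5 of 7, was in the second Keithly library of day 28 at 15 °C, which stood apart as well. The part of these libraries in the values of the members was not tested. Control libraries that did not stand apart also held signal. The first Little Jacks library of day 1 and the third of day 7 each held 4 members above 1, and g34269 reached 4.19 in the latter. The most reads of the 7 features in any control library, 125, were in the second F1 library of day 1, with 49 of g34269.

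After 1 day at 28 °C, c1368 and g12728 had values between 4313 and 12934.5 in all 9 libraries. Feature c1368 had values of 9917, 6808 and 7612 in the F1 cross, 4313, 4782 and 7507 in Little Jacks, and for Keithly 9241, 12934.5 and 8217, against control values of at most 8.80. Feature g12728 had 8833, 5985 and 6607 in the F1 cross, 4431.5, 4439 and 7167 in Little Jacks, and for Keithly 7730, 11498 and 8417, against control values of at most 5.28. Little Jacks held the 2 lowest libraries of both features, and no day 1 library came near the controls.

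Feature c2558 was also far above its controls on day 1. It had 1453, 1071 and 1256 in the F1 cross, 633 in the first Little Jacks library and 1267 and 1311 in the others, and 1029, 1805 and 1412 in Keithly, against control values of at most 1.76. The remaining 4 members had lower values. Feature g11840 averaged 66.1 ± 12.7 in the F1 cross, 59.2 ± 20.5 in Little Jacks and 79.1 ± 23.2 in Keithly (SD, n = 3 each), and g05564 averaged 45.2, 34.7 and 54.5 in the same strains. Feature g34269 averaged 27.1, 18.7 and 28.7, and g35012, the member nearest the lower bound of day 1, averaged 19.0, 14.1 and 16.1. Transcript lengths are not given, so the size of these values ranks no feature against another. Every test below compares a feature with itself, and ratios and read totals that set features side by side are descriptions.

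**Figure D1:**
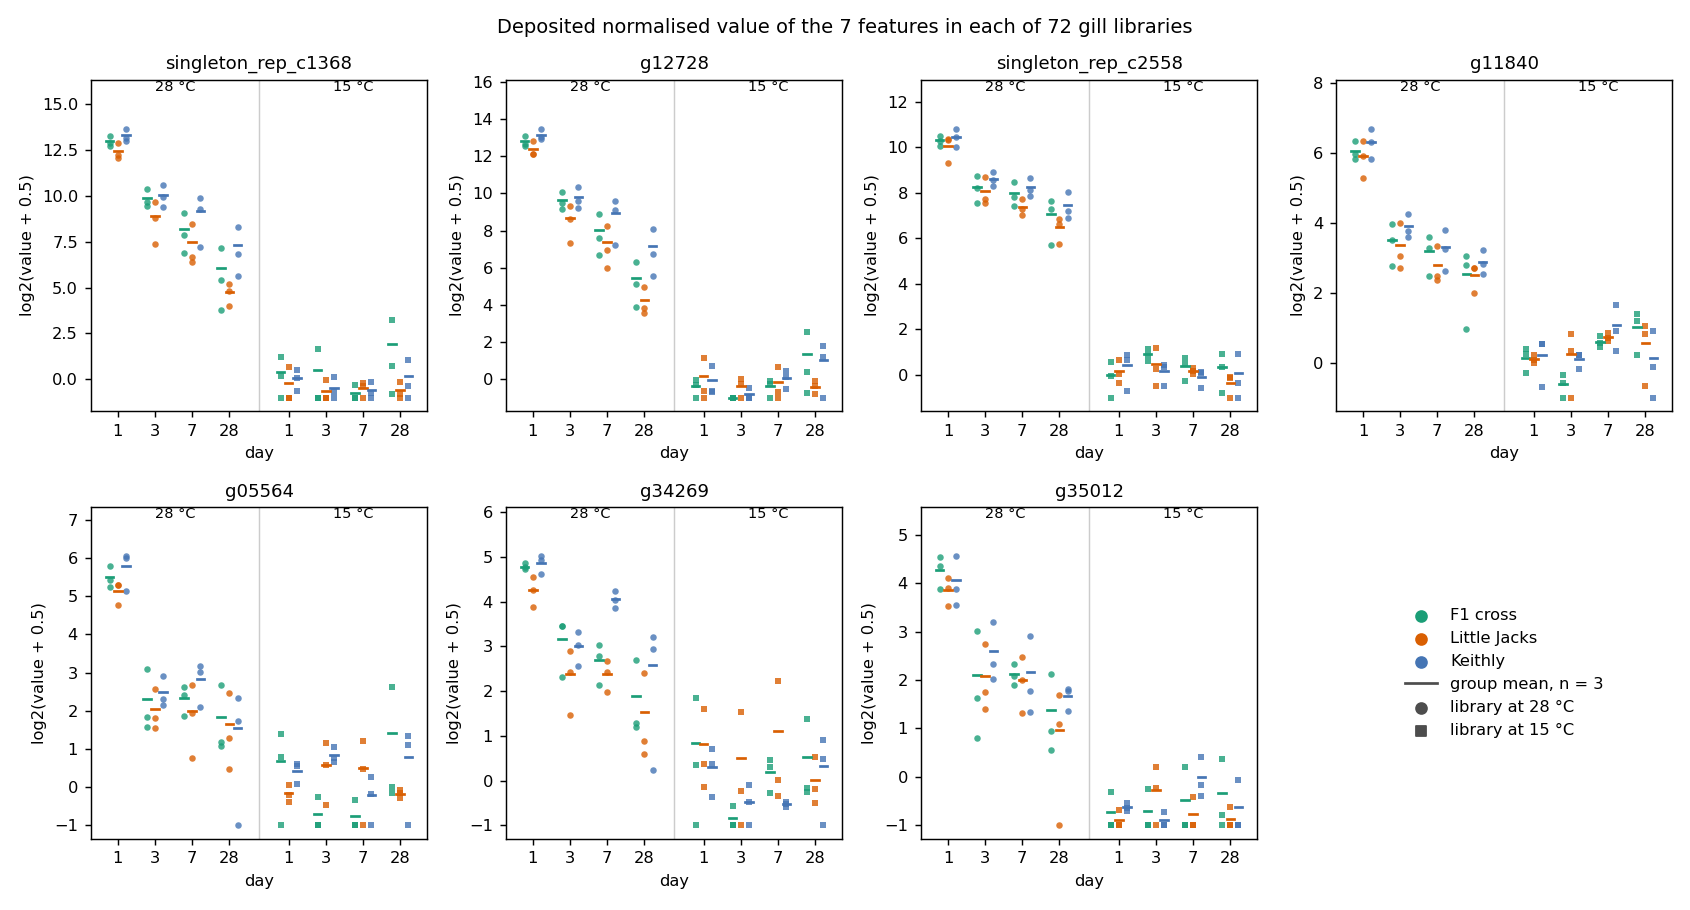
Normalised value of each of the 7 features in every library, on a log axis, by strain and day, with 28 °C and 15 °C marked apart and values of 0 drawn at the foot of the axis. On day 1 all 3 libraries at 28 °C lie above the 12 libraries at 15 °C for all 7 features in each strain, and on day 28 this holds for 4 features in the F1 cross, 4 in Little Jacks and 5 in Keithly.

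Both bounds of the rule passed close to other features. Of the members, g05564 was nearest the upper bound at 15 °C, with a Keithly control median of 0.991. Just outside it lay g14667, whose Little Jacks control median was 1.02 while its day 1 medians were 129.4 in the F1 cross, 103.4 in Little Jacks and 122.8 in Keithly. On the day 1 side, g35012 was the lowest member with a Keithly median of 14.1, and singleton_rep_c3015 was left out with a Keithly median of 8.76. The day 1 bound alone was met in all 3 strains by 9692 features. Only 14 features were at or under 1 at 15 °C in all 3 strains, and the 7 members were 7 of those 14. Every deposited feature with an identifier had a value of at least 1 in at least 3 libraries of its strain, so features low in all libraries are missing from these data. Whether they were removed before deposit is not stated by the authors, and nothing is read from this share. Taken in 1 strain at a time, the 2 bounds held for 18 features in the F1 cross, 17 in Little Jacks and 21 in Keithly.

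At 28 °C, c1368 and g12728 went on falling after day 3 in all 3 strains. Feature c1368 had 1313, 694.7 and 825.6 in F1 libraries on day 3, then 540.1, 118.0 and 233.0 on day 7, and 144.0, 13.2 and 41.6 by day 28. In Little Jacks it had 163.4, 796.7 and 450.0 on day 3, then 82.0, 356.8 and 102.9 on day 7, and 15.2, 36.6 and 27.3 by day 28. In Keithly it had 679, 1534 and 980.0 on day 3, then 147.8, 937.8 and 627.2 on day 7, and 49.4, 319.3 and 113.6 by day 28. Every day 28 library was below every day 3 library of its strain, whereas the libraries of day 7 overlapped those of day 3 in Little Jacks and Keithly.

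The change of c1368 between the 2 days, day 28 minus day 3 on the log2(value + 0.5) scale, was -4.38 ± 0.88 (SE) in the F1 cross with a limma adjusted p of 0.0275, -3.94 ± 0.58 in Little Jacks with 0.0015 and -3.04 ± 0.63 in Keithly with 0.0133. On day 28 its mean was 0.476% to 1.59% of its day 1 mean, depending on the strain, and 0.338% to 2.14% when any 1 library of day 28 was left out. The F1 mean of day 28, 66.3, was 27.4 without the first library, which held under 1 M reads, and the Keithly mean, 160.8, was 81.5 without the second. In bulk gill tissue, fewer cells that express a feature and less RNA of it per cell cannot be told apart.

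Feature g12728 followed the same course. It had 77.8, 14.3 and 35.0 in F1 libraries on day 28, against 1090.5, 562.2 and 729.4 on day 3. In Little Jacks it had 13.9, 30.2 and 11.1 on day 28, against 162.1, 647.6 and 396.1 on day 3. In Keithly it had 46.9, 272.5 and 104.8 on day 28, against 600.0, 1289 and 786.4 on day 3. On day 7 it had 469.8, 104.2 and 196.7 in the F1 cross, 63.9, 304.2 and 123.5 in Little Jacks, and for Keithly 150.1, 768.1 and 551.1. No day 28 library reached the lowest day 3 library of its strain. The change of g12728 was -4.47 ± 0.64 (SE) in the F1 cross with a limma adjusted p of 0.00229, -4.33 ± 0.62 in Little Jacks with 0.00102 and -2.94 ± 0.65 in Keithly with 0.0218, and on day 28 its mean was 0.344% to 1.53% of the day 1 mean, and 0.234% to 2.05% when any 1 library of day 28 was left out.

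These 2 were the only members called at a limma adjusted p under 0.05 for day 28 against day 3, and both were lower. They were called in each strain, where 0.292% of all features were lower in the F1 cross, 0.353% in Little Jacks and 0.621% in Keithly, and 0.117%, 0.0698% and 1.01% of all features were higher in those strains. All 7 members had a negative estimate in each strain, and the median member changed by -1.30 in the F1 cross, -1.37 in Little Jacks and -1.22 in Keithly, beside medians over all features of -0.05, 0.03 and 0.06. At an unadjusted p under 0.05, 5 members were lower in the F1 cross, 4 in Little Jacks and 5 in Keithly, beside 7.31%, 6.98% and 5.39% of all features. On the recovered reads, edgeR called 1, 2 and 2 members lower in those strains, beside 0.179%, 0.3% and 0.968% of all features, and DESeq2 called 1, 3 and 3, beside 0.616%, 0.682% and 1.29%. The members share libraries, so these counts are not independent of each other.

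Some of these calls were lost when 1 library was left out, while the estimates stayed negative. Leaving out any of the 3 F1 libraries of day 3, or the second or the third of day 28, ended the call of c1368 in that strain and left g12728 as the only member called. On the recovered reads, c1368 was not called in the F1 cross by edgeR (adjusted p = 0.0831) or DESeq2 (adjusted p = 0.123). In Keithly no member was called without the second or the third library of day 3 or without the first of day 28, and only c1368 was called without the third of day 28. In Little Jacks both were called whichever library of these days was left out. Without the libraries that stood apart, both features were called in each strain. When the fit held only the 9 libraries at 28 °C of days 3, 7 and 28, g12728 was called in the F1 cross (limma adjusted p = 0.0417) and in Keithly (0.0465) and not in Little Jacks (0.139), while c1368 was called in none (0.0569 to 0.179). With only the 6 libraries of the 2 days in the fit, no member was called in any strain. The share of all features called in the fits with fewer libraries is not given here, so these losses are not read as particular to the members. Over all alternatives run, the change of c1368 stayed between -5.24 and -3.55 in the F1 cross, -4.57 and -3.43 in Little Jacks, and for Keithly -3.74 and -2.40, and that of g12728 between -5.06 and -3.86, -4.88 and -3.88, and -3.59 and -2.32 in those strains.

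**Figure D2:**
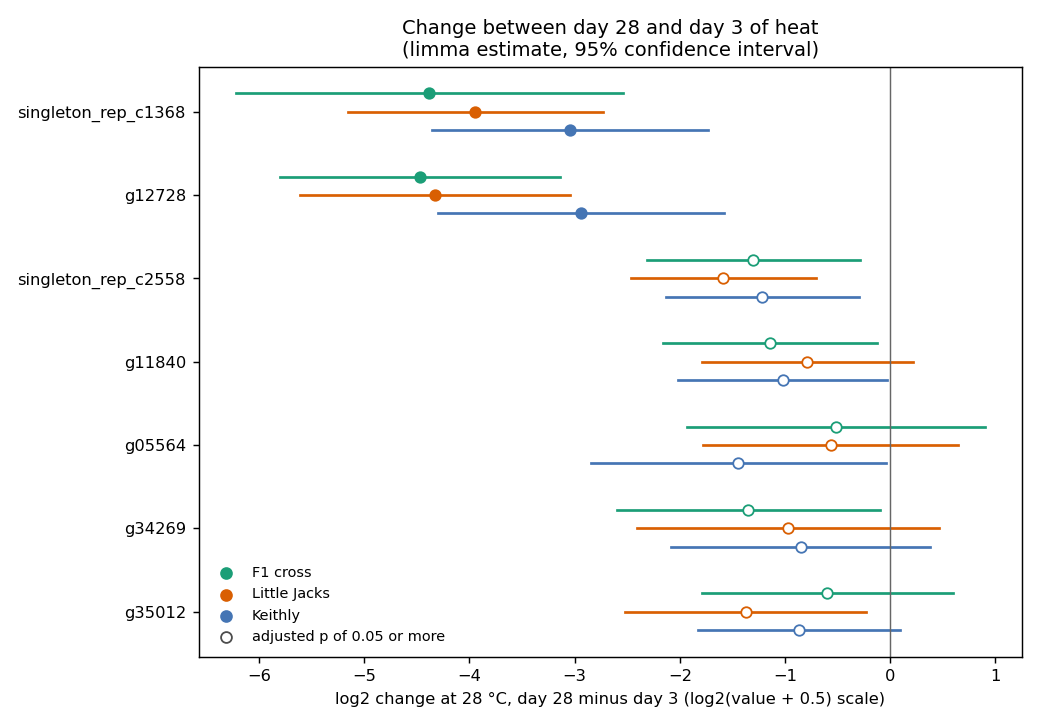
Change at 28 °C, day 28 minus day 3 on the log2(value + 0.5) scale, of the 7 features in each strain, with 95% confidence intervals from limma and filled points where the adjusted p was under 0.05. All 21 estimates are negative, and those of g12728 and c1368, from -4.47 to -2.94, are the called ones.

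Feature c2558 had lower means on day 28 than on day 3 in each strain. It was not called by limma when libraries were not matched by their number. It had 198.4, 51.5 and 154.7 in F1 libraries on day 28, against 422.2, 189.0 and 300.3 on day 3. In Little Jacks it had 98.6, 114.7 and 52.6 on day 28, against 187.3, 416.5 and 208.9 on day 3. In Keithly it had 118.9, 260.8 and 146.0 on day 28, against 314.1, 488.6 and 373.5 on day 3. The groups did not overlap in Little Jacks or Keithly, and in the F1 cross the first library of day 28 lay above the second of day 3.

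The change of c2558 was -1.30 ± 0.49 (SE) in the F1 cross with a limma adjusted p of 0.309, -1.59 ± 0.42 in Little Jacks with 0.116 and -1.22 ± 0.44 in Keithly with 0.216. DESeq2 on the recovered reads called it lower in Little Jacks (-1.60, adjusted p = 0.0413) and in Keithly (-1.16, adjusted p = 0.0349) and not in the F1 cross (adjusted p = 0.222), and edgeR called it in none (adjusted p = 0.103 to 0.269). On day 28 its mean still stood at 8.28% to 12.4% of the day 1 mean, depending on the strain.

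None of the 4 members of lower value was called for day 28 against day 3. Feature g11840 averaged 10.7 in the F1 cross, 9.78 in Little Jacks and 14.4 in Keithly on day 3, which was 16.2% to 18.2% of day 1, and 5.23, 5.19 and 6.86 on day 28. Its day 28 minus day 3 change was -1.14 in the F1 cross with a limma adjusted p of 0.391, -0.79 in Little Jacks with 0.521 and -1.02 in Keithly with 0.39. In F1 libraries g11840 had 7.78, 1.43 and 6.47 on day 28, against 15.1, 6.32 and 10.8 on day 3, and the groups overlapped. In Little Jacks the day 28 values were 3.43, 6.07 and 6.06, against 6.06, 15.5 and 7.81 on day 3, so the groups just met. Keithly had 5.23, 8.85 and 6.49 on day 28, against 11.6, 18.5 and 13.2 on day 3, with no overlap.

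Feature g05564 was already at 9.48% to 10.5% of its day 1 mean on day 3 and averaged 3.08 in the F1 cross, 2.63 in Little Jacks and 2.45 in Keithly on day 28. Each of these means moved by over 1.5 times with 1 library: it was 1.70 in the F1 cross without the first library, whose 5.84 came from 3 reads, 1.42 in Little Jacks without the third and 1.40 in Keithly without the third. The first Keithly library of day 28 held no read of g05564. Its day 7 mean, 10.0% to 12.2% of day 1, was above its day 3 mean in the F1 cross and Keithly; without the first F1 library, the F1 mean of day 3 was 2.76 in place of 4.50, and without the third Little Jacks library, the Little Jacks mean of day 7 was 2.29 in place of 3.48. Feature g35012 averaged 3.81 in the F1 cross, 3.75 in Little Jacks and 5.59 in Keithly on day 3, and 3.83, 3.51 and 3.99 on day 7. It averaged 2.10, 1.45 and 2.67 in those strains on day 28, when 1 F1 and 1 Little Jacks library held 3 reads or fewer. Without the first F1 library its F1 mean was 1.91 on day 3 and 1.20 on day 28, without the second Little Jacks library its mean there was 0.821 on day 28, and without the third Keithly library its Keithly mean was 2.48 on day 7.

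Feature g34269 had a higher mean on day 7 than on day 3 in Keithly. There it had 18.3, 16.0 and 14.0 on day 7, against 9.56, 7.72 and 5.38 on day 3, and the groups did not overlap. Its day 7 mean was 56.1% of day 1 in Keithly, whereas it was 22.1% in the F1 cross and 25.3% in Little Jacks. On day 28 it had 0.675, 8.70 and 7.14 in Keithly, so the first library was far below the others. Neither the day 7 nor the day 28 difference of g34269 from day 3 was called in Keithly.

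For day 7 against day 3, limma called 0 of 7 members in each strain, where 0% of all features were lower in the F1 cross, 0.0945% in Little Jacks and 0.0455% in Keithly, and 0.00416%, 0.0329% and 0.0745% were higher in those strains. At an unadjusted p under 0.05, 2 members were lower in the F1 cross, 2 in Little Jacks and 0 in Keithly, beside 1.28%, 3.96% and 4.96% of all features. On the recovered reads edgeR called 0 members, beside 0%, 0.0781% and 0.0993% of all features lower in those strains, and DESeq2 called 0, beside 0.0458%, 0.304% and 0.459%. Negative estimates were found for 5 members in the F1 cross, 6 in Little Jacks and 5 in Keithly.

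For day 28 against day 7, limma again called 0 of 7 members in each strain, where 0.0541% of all features were lower in the F1 cross, 0.0123% in Little Jacks and 0.0951% in Keithly, and 0%, 0.0123% and 0.0331% were higher in those strains. At an unadjusted p under 0.05, 3 members were lower in the F1 cross, 4 in Little Jacks and 4 in Keithly, beside 5.42%, 3.45% and 3.22% of all features, and all 7 estimates were negative in each strain. Here edgeR called 0 members, beside 0.00416%, 0.00822% and 0.0951% of all features lower, and DESeq2 called 0, beside 0.196%, 0.0781% and 0.219%. With few calls among all features, these comparisons of adjacent days placed no step of the decline within either interval.

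Not all members came back into the range of the controls by day 28. This is a description, because the control libraries were part of the choice of members, and nothing is read from the counts against the background. On day 1 all 3 libraries at 28 °C lay above all 12 at 15 °C for 7 of 7 members in each strain, beside 9.35% of all features in the F1 cross, 7.88% in Little Jacks and 10.2% in Keithly. On day 3 this held for 6 members in the F1 cross, all but g05564, for 6 in Little Jacks, all but g34269, and for 7 in Keithly, beside 5.93%, 7.61% and 6.15% of all features. On day 7 it held for 6 members in the F1 cross, 5 in Little Jacks and 7 in Keithly, beside 4.01%, 3.73% and 4.97% of all features.

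By day 28, g12728, c1368 and c2558 were still above every control library in all 3 strains. Besides these, g35012 was so in the F1 cross, g11840 in Little Jacks, and both in Keithly, which made 4, 4 and 5 members in these strains, beside 2.55%, 3.6% and 4.66% of all features. The F1 values of g35012 on day 28, 3.89, 1.43 and 0.971, came from 2, 4 and 6 reads. Its highest F1 control value, 0.785, came from 4 reads, so these values lie at or near the floor. In the first Keithly control library of day 28, 3 reads equalled 9.24 units, above every Keithly day 28 value of g35012 and g11840. In the first F1 control library of day 3 they equalled 4.04, above every F1 day 28 value of g35012. Both libraries held no read of these features, so lying above them shows little. Without the 7 libraries that stood apart, g11840, g12728, g35012, c1368 and c2558 were above every control in each strain on day 28. Only 2 libraries at 28 °C were then left per strain on day 28, with fewer controls in the F1 cross and Keithly. That makes lying above the controls easier for any feature, and the share of all features is not given for this setting, so nothing is read from it. In the F1 cross, g05564 was also above the controls on days 3 and 7 once the libraries that stood apart were left out, since its highest F1 control value came from 1 of them. Without those that stood apart, the F1 values of day 28 rested on 2 and 6 reads for g35012 and on 4 and 40 for g11840.

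The normalised values of g12728 and c1368 stayed in a narrow range of ratios on days 1, 3 and 7, and the ratio spread more widely on day 28. The ratio of g12728 to c1368 was 0.837 to 1.03 over the 9 libraries of day 1, 0.802 to 0.992 on day 3, 0.779 to 1.20 on day 7 and 0.407 to 1.08 on day 28, with a median of 0.879 over all 36 libraries at 28 °C. The lowest of these, 0.407, was in the third Little Jacks library of day 28, 1 of the libraries that stood apart, and the next lowest, 0.541, was in the first F1 library of day 28, which held under 1 M reads. Whether the 2 features share reads or belong to the same transcript was not tested.

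The ratio of c2558 to c1368 moved with time instead. Its median was 0.157 on day 1, 0.381 on day 3, 0.973 on day 7 and 2.41 on day 28, and it ranged from 0.111 to 6.48 over the 36 libraries. As the lengths of the features are not given, the level of a ratio has no meaning of its own and only its change over the days is described.

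**Figure D3:**
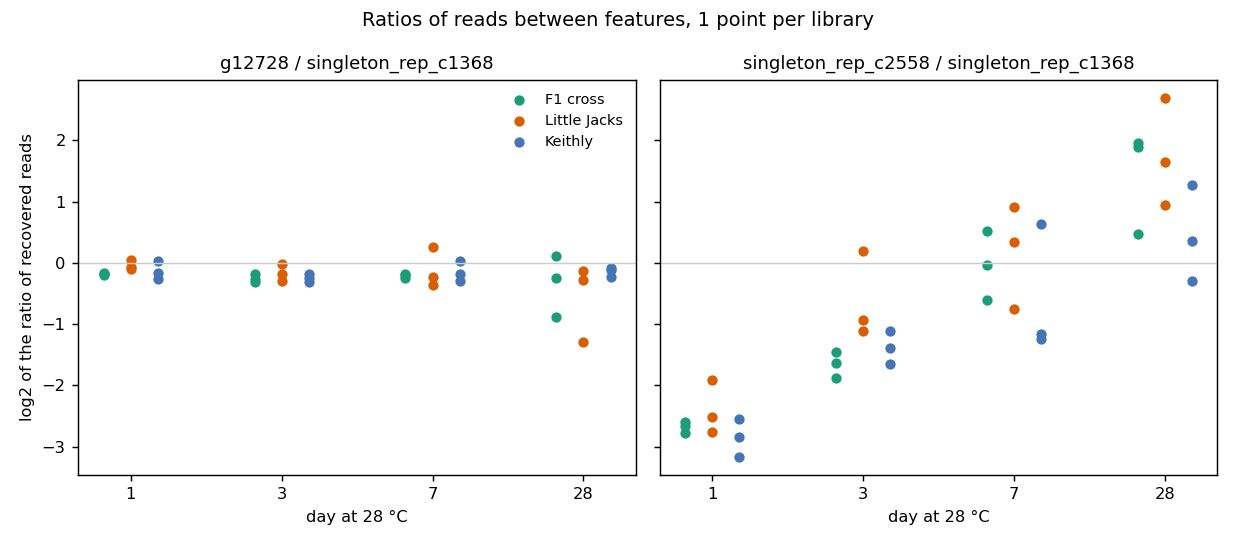
Ratio of normalised values of g12728 to c1368 and of c2558 to c1368 in each of the 36 libraries at 28 °C, on a log axis, by day and strain. The first ratio stays between 0.407 and 1.20 on all days, and the second has medians of 0.157, 0.381, 0.973 and 2.41 on days 1, 3, 7 and 28.

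Across strains, Little Jacks had lower values than Keithly for nearly all members at 28 °C. The ratio of the Little Jacks mean to the Keithly mean ran over the 7 members from 0.546 to 0.872 on day 1, 0.442 to 0.702 on day 3, 0.293 to 0.880 on day 7 and 0.130 to 1.07 on day 28. Both ends of day 28 moved with 1 library: the 0.130 of g12728 was 0.243 without the second Keithly library, and the 1.07 of g05564 was 0.579 without the third Little Jacks library and 0.716 without the first of Keithly. The 0.872 of g35012 on day 1 and its 0.880 on day 7 also turned to values above 1 with 1 library left out, 1.11 without the second Keithly library of day 1 and 1.41 without the third of day 7, or 1.07 without the first Little Jacks library of day 7. Keithly was highest, the F1 cross in the middle and Little Jacks lowest for 6 members on day 1, 6 on day 3, 7 on day 7 and 6 on day 28. The strains were normalised in separate tables and the members share libraries, so this order is a description with no test.

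The change from day 3 to day 28, which is taken within each table, was tested between strains. The difference in that change, Little Jacks minus Keithly, was -1.40 for g12728 (95% interval -3.33 to 0.54) and -0.90 for c1368 (95% interval -3.07 to 1.28). For the F1 cross minus the parental mean it was -0.84 for g12728 (95% interval -2.51 to 0.84) and -0.89 for c1368 (95% interval -2.77 to 1.00). With limma, 0 of 7 members were called in either comparison, and 0% of the 23234 features were called in either direction. At an unadjusted p under 0.05 there were also 0 members, beside 3.71% of all features for Little Jacks minus Keithly and 6.18% for the F1 cross minus the parental mean. All 4 intervals include 0 and reach beyond -2, so the strains are shown neither to differ nor to fall alike.

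Together the 7 features took more than 1 in 100 of the recovered reads on day 1 in the F1 cross and Keithly. These totals leave out rows without an identifier, so shares of all deposited reads are no higher than those given. The share of recovered reads at 28 °C in the F1 cross was 1.17% ± 0.106 on day 1, 0.207% ± 0.0668 on day 3, 0.0841% ± 0.0473 on day 7 and 0.0278% ± 0.0211 on day 28 (SD, n = 3 each). The Little Jacks share was 0.798% ± 0.247, 0.115% ± 0.0634, 0.0519% ± 0.0395 and 0.0144% ± 0.00822 on these days, and the Keithly share 1.39% ± 0.242, 0.226% ± 0.0714, 0.139% ± 0.0769 and 0.0487% ± 0.0350. Group means at 15 °C were 0.000308% to 0.000805% over the strains and days, so the mean share at 28 °C on day 28 was above every 15 °C mean in each strain. The F1 mean of day 28 was 0.0169% without the first library, whose share came from 226 reads, the Keithly mean of day 28 was 0.0287% without the second, and the Little Jacks mean of day 7 was 0.0293% without the second. The day 1 shares and those at 15 °C come from the libraries that chose the members. The members did not add to the share alike. In Keithly on day 1, c1368 held 236239 reads over the 3 libraries, g12728 212150, c2558 32144 and no other member over 1793. On day 28 in Keithly, c1368 held 2809, g12728 2449 and c2558 2924.

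**Figure D4:**
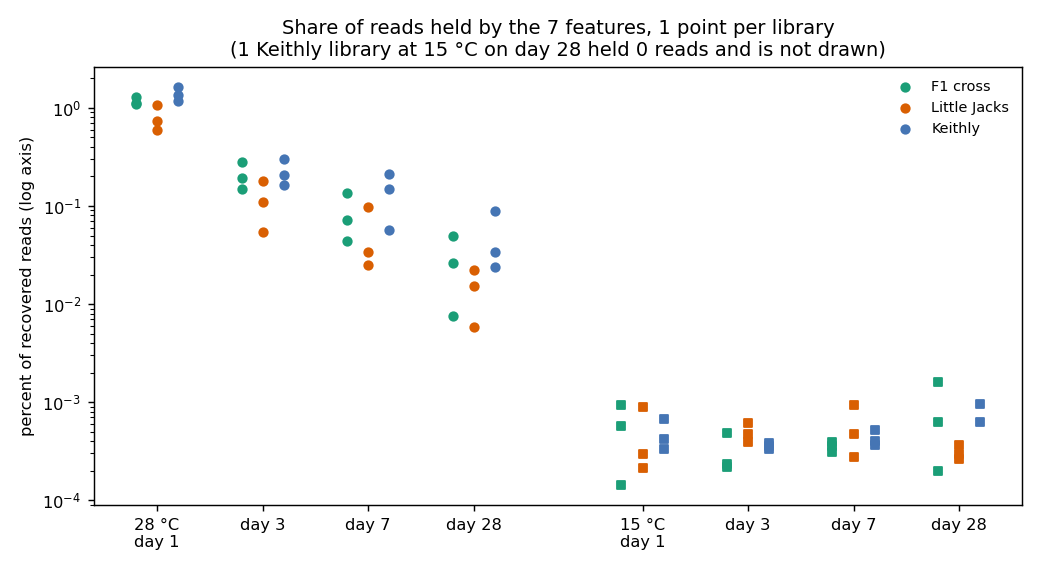
Share of recovered reads, over rows with an identifier, taken by the 7 features in each library. It is in percent on a log axis, by strain, day and temperature. The first Keithly library of day 28 at 15 °C held 0 reads of them and is not drawn. At 28 °C the group means, which are not drawn, are 0.798% to 1.39% on day 1 and 0.0144% to 0.0487% on day 28. The 15 °C means lie between 0.000308% and 0.000805%.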

How the data were processed

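Per the labels' protocols, RNeasy kits were used for gill RNA, Ribo-Zero for ribosomal RNA depletion and a ScriptSeq kit for the libraries. CASAVA 1.8, Bowtie and edgeR were used per the submitters' processing notes. No reference or filter is named there. The signal values that the authors deposited, 1 table per strain, are read counts scaled by a library's effective size. Column sums over rows with an identifier were 0.819 to 1.77 M. At 28 °C they were 1.29 to 1.60 M on day 1 and 0.886 to 1.77 M on day 28. Without the libraries that stood apart, the day 28 sums were 0.886 to 0.987 M. Percents of the day 1 mean use the deposited scaling and not column totals. The authors' library table also gives quality reads and reads matched to the transcriptome (M) and a percent matched, as its columns are labelled by the authors; they enter no result here. Columns were tied to strain, temperature and day through their names. The descriptions of the 3 F1 samples of the first day in heat name the Little Jacks table, whereas columns of that name stand in the F1 table, so that group rests on the column names. The S number matched no sample label and only names a replicate.

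In every library 100% of values were whole multiples of its smallest step within 0.01 reads, which gave the recovered reads. limma 3.58.1 (R 4.3.3) with a trended prior was fitted per strain on log2(value + 0.5), with 1 mean per group over 24 libraries, on 24011 features in the F1 cross, 24343 in Little Jacks and 24174 in Keithly. Fold changes on that scale understate those of low features. Strain differences were fitted over all 72 libraries and 23234 features. Calls are at a two-sided Benjamini-Hochberg adjusted p under 0.05 over all features. edgeR 4.0.16 (quasi-likelihood) and DESeq2 1.42.0 on recovered reads, other pseudocounts, filters and left-out libraries were alternatives. The limma fits per strain were tried on simulated counts with the same dispersion for every feature and no libraries that stood apart. That setting is simpler than these data, so it does not give their error rate here. Libraries that stood apart were those beyond the largest gap of the first component of within-group residuals (features with a mean of at least 5). The members and all choices were made with earlier results of these data known. Members were to be named by day 1 level, day 28 level, steepest called fall, and any call between strains; as there are 7, each is named.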

Additional observations from a re-analysis of the deposited data

How the results depend on the processing

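For day 28 against day 3, the number of members called lower was 2 in each strain. With a pseudocount of 0.1 it was 1 in the F1 cross, 1 in Little Jacks and 0 in Keithly; with only the 6 libraries compared, 0 in each strain; with only the 9 libraries at 28 °C of days 3, 7 and 28, added after seeing the data, 1 in the F1 cross, 0 in Little Jacks and 1 in Keithly; with edgeR, 1 in the F1 cross and 2 in the other strains; with DESeq2, 1 in the F1 cross and 3 in the other strains, where c2558 was added. Leaving out 1 library gave between 1 and 2 in the F1 cross, and between 0 and 2 in Keithly. For day 28 against day 7, where none was called, g12728 was called with a pseudocount of 1 in Little Jacks (1 member). In the F1 cross none was called with the libraries under 1 M reads or those that stood apart left out alone (0). Leaving out both kinds together left only the third F1 library on day 28, so no call is read from that fit. Same-numbered libraries at 28 °C did not deviate together in every pair. Their correlation was over 0.1 in 4 of 18 pairs in the F1 cross, 12 of 18 in Little Jacks and 3 of 18 in Keithly. For differently numbered libraries this held in 8, 17 and 10 of 36 pairs in those strains. In Little Jacks the median correlation was 0.342 for same-numbered pairs and -0.068 for the others. Of the Little Jacks libraries at 28 °C that stood apart, those of days 7 and 28 were both numbered 3, and that of day 1 was numbered 1. Their part in these correlations was not tested. A replicate block, which matched libraries by number, gave 1 member for day 28 against day 7 in the F1 cross. For day 28 against day 3 in Little Jacks it gave 3 members, c2558 included. Apart from edgeR and DESeq2, the share of all features called under these alternatives is not given here. Their counts of members are therefore not read against a background. The 7 members became 4 with a bound of 0.5 at 15 °C, 31 with 2, 11 with a day 1 bound of 5 and 4 with values scaled to the column total. They became 5 with a day 1 bound of 20 and 5 with means in place of medians. Without the libraries that stood apart they stayed 7. Of 1564 alternative estimates for single members, 48 changed sign, none of them called; among day 28 minus day 3 estimates, leaving out 1 library gave -1.11 to 0.0048 for g35012 in the F1 cross, where the first library of day 3 turned the sign, and -1.39 to 0.0927 for g34269 in Keithly, where the first of day 28 did. The cause was not tested. Depth limits g05564, g34269 and g35012, which held 3 reads or fewer in some libraries of day 28.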

Other observations

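Within a group, the same library was often highest for most members. In the F1 cross at 28 °C, the library numbered 1 was highest for 5, 6, 5 and 6 members on days 1, 3, 7 and 28. On day 28 that F1 library held under 1 M reads. Its values of g05564, g35012 and g11840 came from 3, 2 and 4 reads, at or next to the floor. The Little Jacks library numbered 2 was highest for 2, 6, 4 and 6 members on these days, and in Keithly the library numbered 2 for 6, 6, 5 and 5. How often these libraries were highest over all features is not given here. The number is tied to no sample label, so whether it marks a tank is not known, and the part of such a link in the values was not tested.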
